A study of Homo sapiens with 16 samples.

Results

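Some open chromatin regions lost accessibility within 2 h of dTAG47 and were less accessible still at 24 h. These deepening losses, 288 of the 56949 regions counted in the experiment labelled 6086, are described here. The assay was ATAC-seq: a transposase cuts and tags DNA that is not packed away, and the number of reads over a region reports how open it is. All libraries came from Rh30, an established rhabdomyosarcoma cell line, carrying PAX3-FOXO1 fused to FKBP (Rh30_PAX3-FOXO1-FKBP in the labels). Cells received DMSO, the solvent control, or 500 nM dTAG47, a degrader that brings the FKBP tag to a ubiquitin ligase. Experiment 6086 had DMSO and 2, 4 and 24 h of dTAG47, and experiment 6211 had its own DMSO and 0.5, 1 and 2 h, with 2 libraries in each group. How long DMSO was given is not in the labels, nor whether the line is 1 clone. They also do not say that replicates were separate cultures. The p-values therefore speak for differences among these libraries, whose spread may be technical. Every group carries the tag, so loss of the fusion and any other action of dTAG47 cannot be told apart.

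PAX3-FOXO1 joins the DNA-binding domains of PAX3, a developmental transcription factor, to the activation domain of FOXO1. It is the driver fusion of alveolar rhabdomyosarcoma, a childhood tumour with features of arrested muscle development, and it is known to bind mainly at enhancers far from gene starts. An enhancer stays accessible while transcription factors and the remodelling complexes they recruit hold nucleosomes away, and it can close at once or in steps after such a factor is removed.

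The members were chosen by measured values of experiment 6086 alone. A level is given in CPM (the count of a region scaled to a fixed total of reads in regions), and a log2 change is the log2 of the ratio of mean CPM in dTAG47 to mean CPM in DMSO, with 0.5 added to both. A deepening loss had a mean of at least 5 CPM over the 8 libraries, a log2 change at 2 h of -0.5 or lower, and a log2 change at 24 h that was lower than the 2 h change by at least 0.4. Of the 48035 regions with a mean of at least 5 CPM, 828 met the criterion at 2 h. Of these early losses 288 deepened, 502 stayed within 0.4 of their 2 h change and are called complete, and 38 recovered by more than 0.4. Values at 2 and 24 h in experiment 6086 are therefore descriptions of how the members were chosen, and they carry no test. The libraries of experiment 6211 had no part in the choice, and tests are given there. Positions are on hg19, and no gene annotation or genome of that build was used here, so regions are named by position and are not assigned to genes, promoters or enhancers.

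Members lay close to the limits as well as far beyond them. Just inside the limit on the further loss was chr21:44092289-44092755, with log2 changes of -0.51 at 2 h and -0.91 at 24 h, while chr19:42536583-42537080, with -0.53 and -0.93, was just outside it. At the 2 h limit, chr17:64778708-64779402 had a log2 change of -0.50 and was included, and chr9:112318201-112318753, also at -0.50, fell just short although it reached -1.42 at 24 h. At the limit on the level, chr2:64896498-64896846 had a mean of 5.01 CPM and chr19:57599576-57599805, left out, 4.97 CPM. There were 46 members within 0.05 of the limit on the further loss and 30 early losses within 0.05 outside it. At the 2 h limit 33 members lay within 0.05 inside and 48 regions within 0.05 outside.

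The median member had 60.3% of its DMSO level left at 2 h, 49.8% at 4 h and 35.5% at 24 h. The 2 libraries of each time were close: library medians were 58.6% and 60.5% at 2 h, 51.5% and 48.3% at 4 h, and 35.2% and 35.8% at 24 h. At 24 h the members ranged from 6.42% to 51.9% of DMSO, and 39 of them had at most 25% left. Their median level was 15.1 CPM in DMSO and 5.10 CPM at 24 h, and only 9 members were below 2 CPM at 24 h. The share of all reads in regions that fell in members was 0.605% and 0.568% in the DMSO libraries and 0.207% and 0.209% in the 24 h libraries. Complete losses, in comparison, had 62.5% of DMSO left at 2 h, 58.8% at 4 h and 59.04% at 24 h (medians), as the rule requires.

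**Figure D1:**
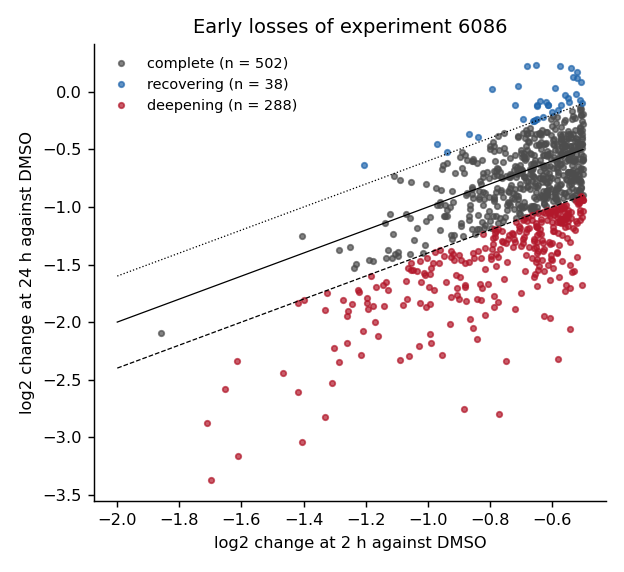
Each point is 1 of the 828 early losses of experiment 6086, with its log2 change at 2 h on the x axis and at 24 h on the y axis. The solid line marks equal changes, and the dashed and dotted lines mark a 24 h change lower or higher by 0.4. The 288 deepening losses lie below the dashed line, most of them near it.

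The further loss from 2 to 24 h had a median of -0.60 on the log2 scale and spanned -0.40 to -2.03. It lay between 0.4 and 0.5 in size in 71 members, between 0.5 and 0.75 in 129, between 0.75 and 1 in 48, between 1 and 1.5 in 32, and above 1.5 in 8. The greatest further loss was at chr21:33509557-33509974, a region of 418 bp. Its DMSO libraries had 11.97 and 11.4 CPM, the 2 h libraries 6.45 and 6.81, the 4 h libraries 4.44 and 3.91, and the 24 h libraries 1.06 and 1.44 CPM. Each time lay wholly below the one before, and 10.7% of the DMSO level was left at 24 h (log2 change -0.77 at 2 h and -2.80 at 24 h). No region of experiment 6211 overlapped it. The next in size of further loss lay on chromosomes 14 and 10.

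At chr14:34809317-34809801 the DMSO libraries had 16.2 and 14.3 CPM, the 2 h libraries 7.49 and 8.59, the 4 h libraries 5.83 and 5.14, and the 24 h libraries 1.86 and 1.82 CPM. At chr10:101725991-101726392 they had 12.4 and 11.2, 7.65 and 7.83, 5.74 and 5.42, and 2.03 and 1.92 CPM in the same order. In each, about as much was lost on the log2 scale after 4 h as before it, since 50.8% and 44.0% of the 24 h log2 change was present at 4 h.

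The lowest 24 h level was at chr5:170008229-170008611. Its libraries had 15.2 and 12.8 CPM in DMSO, 3.56 and 4.36 at 2 h, 2.00 and 2.15 at 4 h, and 0.964 and 0.830 at 24 h, so that 6.42% was left. This region combined a deep loss at 2 h (log2 change -1.70) with a further loss of -1.67. The same held for chr6:44628171-44628686, which went from 42.0 and 38.0 CPM in DMSO to 12.7 and 12.8 at 2 h, 7.83 and 9.25 at 4 h, and 4.39 and 3.64 at 24 h. On chromosome 12, chr12:66508913-66509375 had 13.7 and 13.99 CPM in DMSO and 1.16 and 1.31 at 24 h, and chr12:66634884-66635285 had 14.5 and 12.1 CPM in DMSO and 1.16 and 1.60 at 24 h. At chr20:42912748-42913027 the DMSO libraries lay further apart, at 15.0 and 10.6 CPM, and the 24 h libraries had 1.20 and 1.57 CPM. These 5 regions were the lowest of all members at 24 h by log2 change, from -2.82 to -3.37, and the treated libraries of each were below both DMSO libraries at every time.

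The 3 most open members closed in part, as the median member did. At chr10:103529965-103531230, 1266 bp wide, the DMSO libraries had 107 and 108 CPM, the 2 h libraries 71.5 and 71.6, the 4 h libraries 53.4 and 53.0, and the 24 h libraries 45.0 and 46.3 CPM. At chr16:89608968-89609878 they had 107 and 98.4, 50.1 and 53.5, 41.8 and 38.4, and 31.7 and 29.9 CPM. The widest member, chr2:18334900-18336507 with 1608 bp, had 106 and 96.2, 58.96 and 61.2, 53.1 and 49.9, and 41.5 and 41.3 CPM. At most 42.5% of the DMSO level was left at 24 h in these 3 regions.

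The 4 h libraries entered the choice only through the mean over 8 libraries, and their levels lay between those of the other times. The 4 h change lay between the 2 h and the 24 h change in 279 of 288 members, and both 4 h libraries were below both 2 h libraries in 225. The rule used the 2 and 24 h values that bound this interval, so these counts follow in part from the choice of members. The share of all regions with such separate libraries was not counted. Among complete losses the 4 h level was below the 2 h level in 348 of 502. In a comparison of 4 h with DMSO, edgeR called all 288 members lower (288 of 288, 5.44% of all regions tested) and none higher (0 higher at an unadjusted p under 0.05). DESeq2 called 284 of them lower and none higher. These tests share the DMSO libraries with the rule, and nothing is read from the count. The step from 2 to 4 h had a median log2 change of -0.24, and the step from 4 to 24 h of -0.41. Averaged over each step, this is -0.12 per hour from 2 to 4 h and -0.02 per hour from 4 to 24 h. No time between 4 and 24 h was measured, so the course within that step is not known. The later step was still the greater one in 222 members (77.1%). At the median 70.3% of the 24 h log2 change was present at 4 h. These steps and shares also rest on values that the rule used, and they are descriptions.

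That share ranged from 38.2% to 99.7%. It was smallest at chr8:68821259-68821633, which had 25.3 and 19.9 CPM in DMSO, 14.8 and 15.9 at 2 h, 12.7 and 13.1 at 4 h, and 4.95 and 5.14 at 24 h. Next was chr14:34512916-34513370, with 18.5 and 17.1 CPM in DMSO, 11.1 and 12.7 at 2 h, 10.8 and 10.2 at 4 h, and 5.15 and 4.85 at 24 h (42.5% present at 4 h). In both regions more of the log2 change came after 4 h than before it, while in CPM the drop before 4 h was the larger. At the other end, chr12:119131937-119132515 had 22.1 and 19.4 CPM in DMSO, 13.1 and 15.8 at 2 h, 11.7 and 9.93 at 4 h, and 11.1 and 10.4 at 24 h. At chr20:34822815-34823189 the level went from 11.6 and 12.6 CPM in DMSO through 4.22 and 4.82 at 2 h to 3.35 and 3.19 at 4 h, and it was 2.86 and 3.64 CPM at 24 h. In these 2 regions the 4 h and 24 h libraries overlapped.

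Experiment 6211 gave values for the first 2 h from libraries that did not choose the members. By 50% reciprocal overlap with a single partner on each side, 241 of the 288 members (83.7%) could be matched to a region there. The other 47 were wider and more open, with a median of 842 bp and 29.1 CPM in DMSO against 398 bp and 14.8 CPM for the matched ones; 20 of them overlapped no region of experiment 6211. In the matched members the median level was 79.7% and 81.8% of DMSO in the 0.5 h libraries, 71.0% and 68.0% in the 1 h libraries, and 55.6% and 55.5% in the 2 h libraries. The DMSO libraries themselves lay at 103% and 96.6% of their mean. The median level was thus below DMSO at the earliest time. Both treated libraries were below both DMSO libraries in 211 of 241 members at 0.5 h, 239 at 1 h and 238 at 2 h. Among the 394 matched complete losses this held for 320, 382 and 390. The share over all regions was not counted, and nothing particular to the members is read from these counts.

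**Figure D2:**
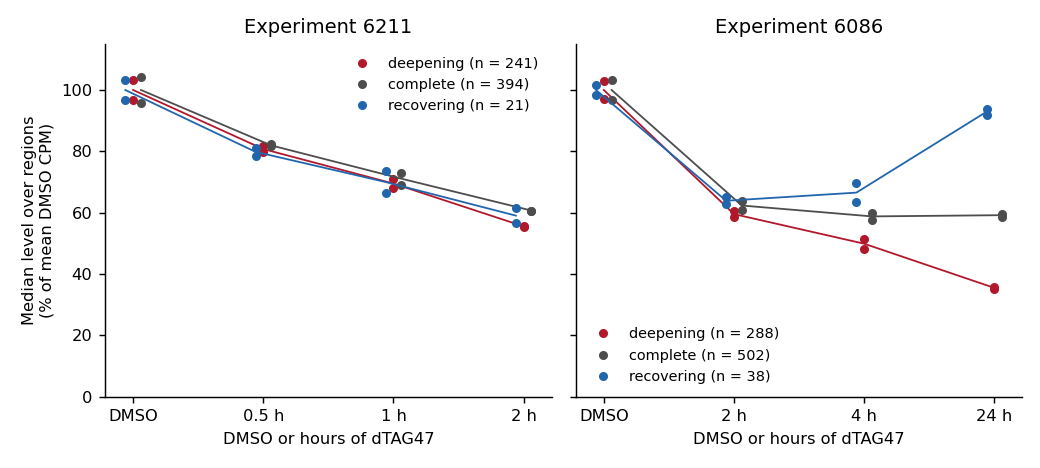
Each point is 1 library, and its height is the median over regions of the level as a percent of the mean DMSO CPM, for deepening, complete and recovering early losses in experiment 6211 (left, matched regions) and experiment 6086 (right). Lines join the means of the 2 libraries and times are not to scale. The 3 sets are close up to 1 h, and in experiment 6086 deepening losses go from 58.6% and 60.5% at 2 h to 35.2% and 35.8% at 24 h.

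Tests in experiment 6211 ran over all 40844 regions with edgeR's quasi-likelihood test and Benjamini-Hochberg adjustment, at an adjusted p under 0.05. At 2 h, 230 of the 241 matched members (95.4%) had fallen, where 4.92% of all regions tested had. Their log2 changes against DMSO had a median of -0.85 and ran from -1.98 to -0.16. A loss of at least 1 on the log2 scale was seen in 83 members, against 258 of all 40844 regions. The median over all regions tested was 0.00. At 1 h, 170 members (70.5%) had fallen, against 2.47% of all regions, with a median log2 change of -0.54. That count was 60 without 1 h library B and 89 without DMSO library A, and DESeq2 called 100. At 0.5 h, 238 of 241 members had a negative change (median -0.32), against 20591 of all 40844 regions and 388 of 394 matched complete losses. An unadjusted p under 0.05, in either direction, was found for 173 members, 2723 of all regions and 236 of the complete losses. Only 2 members passed at 0.5 h, against 0.00735% of all regions. The count was 0 when either 0.5 h library or DMSO library A was left out, and 20 when DMSO library B was. No member was called higher at 0.5, 1 or 2 h by edgeR or DESeq2, and 0 had a positive change with an unadjusted p under 0.05 in edgeR. In the authors' deposited tables for the same comparisons, 1 matched member was lower at 0.5 h, 100 at 1 h and 210 at 2 h. These calls were at an adjusted p under 0.05, and over all 40844 regions they numbered 2, 360 and 1186. The member counts equal those of DESeq2 as run here on the same libraries, so they are not separate evidence.

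The 2 members that had fallen at 0.5 h had at most 25.3% of DMSO left at 24 h. For chr6:44628171-44628686 the matched region, chr6:44628192-44628592, had 62.2 and 61.5 CPM in DMSO, 39.5 and 42.4 at 0.5 h, 36.1 and 36.3 at 1 h, and 18.2 and 17.8 at 2 h. The levels at 0.5 and 1 h lay near each other. On the log2 scale the change from 1 to 2 h (-1.02, SE 0.10, adjusted p = 1e-05) was larger than that from DMSO to 1 h (-0.78, SE 0.08, adjusted p = 2.18e-05), while in CPM more was lost before 1 h. The other was chr7:25817607-25818247, with 39.0 and 36.6 CPM in DMSO, 24.5 and 23.9 at 0.5 h, 22.2 and 19.7 at 1 h, and 16.5 and 14.3 at 2 h in experiment 6211. Its log2 change was -0.66 at 0.5 h (SE 0.10, adjusted p = 0.0258) and -1.31 at 2 h (SE 0.11, adjusted p = 5.19e-08). In experiment 6086 it had 25.7 and 22.7 CPM in DMSO and 6.05 and 6.20 at 24 h.

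The 5 members with the lowest 2 h changes in experiment 6211 lay on chromosomes 5, 11 and 12. At chr12:66997879-66998236 the DMSO libraries had 20.7 and 18.9 CPM, the 0.5 h libraries 15.2 and 12.9, the 1 h libraries 10.7 and 9.08, and the 2 h libraries 4.42 and 5.84 CPM (log2 change -1.98 at 2 h, SE 0.17, adjusted p = 3.51e-08). No 2 times overlapped there. In experiment 6086 the same member had 4.05 and 4.19 CPM at 2 h and 2.86 and 2.52 CPM at 24 h. Its further loss was -0.53, against a median of -0.60 over all members. At chr5:170008229-170008611 the 4 groups had 21.0 and 22.9, 14.1 and 13.9, 12.7 and 9.79, and 5.01 and 6.34 CPM in order of time (log2 change -1.97 at 2 h, adjusted p = 3.18e-08). The other three were chr12:66634884-66635285 (log2 change -1.92), chr12:66508913-66509375 (-1.87) and chr11:20297618-20298170 (-1.87). At chr11:20297618-20298170 the libraries had 23.2 and 18.9 CPM in DMSO, 15.1 and 17.1 at 0.5 h, 11.0 and 11.0 at 1 h, and 5.86 and 5.84 at 2 h. In each of these 5 members all alternative fits kept the call. They were picked among members already called at 2 h in these libraries, with both 2 h libraries below both DMSO libraries. The kept calls and low adjusted p-values follow in part from that choice, and no support is read from them.

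At the other end, 11 matched members did not pass at 2 h in experiment 6211. The 3 with the least change were chr17:17440742-17440970 (log2 change -0.16, adjusted p = 0.682), chr7:131276608-131277045 (-0.27, adjusted p = 0.398) and chr16:4439030-4439379 (-0.30, adjusted p = 0.254). At chr17:17440742-17440970 the DMSO libraries had 14.01 and 12.6 CPM and the 2 h libraries 10.4 and 13.99 CPM, so the groups overlapped. The first 2 of these changed sign without 2 h library A, to 0.05 and 0.06. In experiment 6086 the 3 regions had between 35.2% and 48.0% of DMSO left at 24 h.

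**Figure D3:**
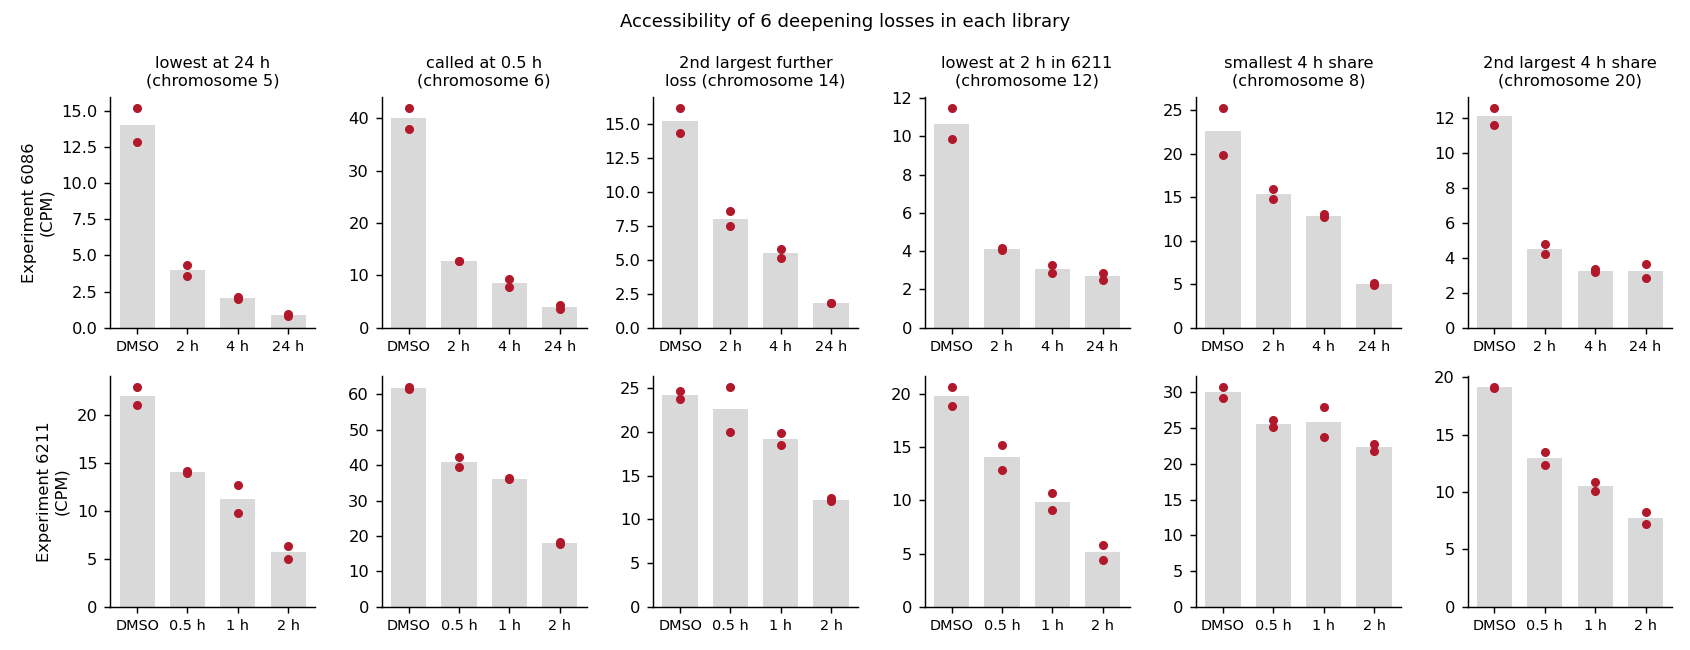
Bars are means and points are the 2 libraries of each group, in CPM, for 6 deepening losses named in the text, in experiment 6086 (top) and experiment 6211 (bottom). Scales differ between panels, and CPM is not comparable between the experiments because their regions were drawn differently. The chromosome 8 region keeps 12.7 and 13.1 CPM at 4 h and drops to 4.95 and 5.14 at 24 h, while the chromosome 20 region has 3.35 and 3.19 CPM at 4 h and 2.86 and 3.64 at 24 h.

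Between 0.5 and 2 h, tested directly, 131 of 241 members (54.4%) fell, against 1.28% of all regions, with a median log2 change of -0.54. The count was 56 or 42 when 0.5 h library A or B was left out and 60 without 2 h library B, and DESeq2 called 81. Between 1 and 2 h, 36 members (14.9%) fell, against 0.316% of all regions, with a median log2 change of -0.33. That count was not stable, since it fell whichever library of the 2 groups was left out. Each such fit leaves 1 library in a group, and the cause of the fall was not tested. DESeq2 called 16. No member was called higher in these 2 comparisons by edgeR or DESeq2, and 0 rose at an unadjusted p under 0.05. The 37 matched members with a further loss of at least 1 on the log2 scale in experiment 6086 were all called lower at 2 h in experiment 6211. Of these, 24 fell between 0.5 and 2 h, and 11 between 1 and 2 h. Over all 241 matched members the shares called were 95.4%, 54.4% and 14.9%, and over all regions 4.92%, 1.28% and 0.316%. Whether the 37 differ from the other members was not tested.

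Single members followed different courses over these hours. At chr14:34809317-34809801, the second in size of further loss, the DMSO libraries of experiment 6211 had 24.7 and 23.8 CPM, the 0.5 h libraries 20.01 and 25.2, the 1 h libraries 19.9 and 18.5, and the 2 h libraries 12.1 and 12.4 CPM. The 0.5 h libraries overlapped DMSO, the 1 h change did not pass (log2 change -0.34, adjusted p = 0.134), and the level fell between 1 and 2 h (log2 change -0.66, SE 0.13, adjusted p = 0.0112). At chr10:101725991-101726392 the groups had 24.3 and 22.2, 19.1 and 19.7, 16.4 and 16.7, and 14.6 and 16.1 CPM, and its change at 2 h was smaller (log2 change -0.62, SE 0.12, adjusted p = 0.00136). At chr8:68821259-68821633, where most of the 24 h log2 change came after 4 h, the groups had 29.2 and 30.8, 25.1 and 26.1, 23.7 and 28.0, and 22.8 and 21.8 CPM. Its 2 h change of -0.44 (SE 0.11, adjusted p = 0.0145) missed the threshold in DESeq2 (adjusted p = 0.0762) and when 2 h library A (0.0559), 2 h library B (0.14) or DMSO library B (0.0515) was left out. At chr14:34512916-34513370 the log2 change at 2 h was -0.50 (SE 0.12, adjusted p = 0.0121), and it too missed the threshold in DESeq2 (0.0709) and when 2 h library A (0.106), 2 h library B (0.0521) or DMSO library A (0.252) was left out. By contrast, chr20:34822815-34823189, where the loss was nearly done by 4 h, went from 19.2 and 19.1 CPM in DMSO to 13.5 and 12.4, 10.1 and 10.9, and 7.22 and 8.25 CPM at 0.5, 1 and 2 h (log2 change -1.33 at 2 h, SE 0.14, adjusted p = 9.41e-07).

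The members as a whole were described in the same way. When they were divided into 3 groups of 96 by the share of the 24 h change present at 4 h, those with the smallest shares (38.2% to 65.0%) had median log2 changes of -0.26, -0.43 and -0.67 at 0.5, 1 and 2 h in experiment 6211. The middle group had -0.31, -0.53 and -0.82, and the group with the greatest shares (75.1% to 99.7%) had -0.34, -0.62 and -1.02. These medians are over the 85, 80 and 76 matched members of the 3 groups. In experiment 6086 the median 24 h changes of the same members were -1.47, -1.35 and -1.43, and their median 2 h changes, which the rule used, were -0.63, -0.69 and -0.91, in the same order as the 2 h medians of experiment 6211. Over the 241 matched members, the 2 h change in experiment 6211 had a Spearman rho of 0.77 with the 2 h change in experiment 6086, 0.58 with the 24 h change and 0.17 with the further loss. The 2 experiments share no library, but regions within a library share its depth and normalisation, and these correlations are descriptions.

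The 3 most open members had no partner by the matching rule, because a region of 401 bp in experiment 6211 covered only part of each. The overlapped part of chr16:89608968-89609878, chr16:89609375-89609775, had 108 and 93.9 CPM in DMSO, 80.6 and 81.5 at 0.5 h, 77.7 and 64.0 at 1 h, and 45.9 and 47.7 at 2 h (log2 change -1.13 at 2 h, SE 0.09, adjusted p = 3.18e-08). That of chr2:18334900-18336507 had 97.3 and 81.6 CPM in DMSO and 48.7 and 52.2 at 2 h (log2 change -0.85, SE 0.09, adjusted p = 6.93e-07). That of chr10:103529965-103531230 had 96.7 and 99.4 CPM in DMSO, 87.3 and 94.4 at 0.5 h and 71.2 and 69.3 at 2 h (log2 change -0.50, SE 0.08, adjusted p = 0.000111). All 3 fell between 0.5 and 2 h (edgeR adjusted p = 2.83e-05, 0.0085 and 0.00956). None of them passed at 0.5 h against DMSO (edgeR adjusted p = 0.261, 0.131 and 0.838 in the same order).

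Deepening and complete losses were set side by side in experiment 6211, where neither set was chosen. The 394 matched complete losses had median log2 changes, from mean CPM, of -0.28, -0.48 and -0.69 at 0.5, 1 and 2 h, and the 241 deepening losses -0.30, -0.52 and -0.81. At 0.5 h these medians were 39.9% of the 2 h median for complete and 36.8% for deepening losses. The shares called lower were 61.4% and 70.5% at 1 h, and 91.1% and 95.4% at 2 h. For the fall between 0.5 and 2 h they were 33.2% and 54.4%, and for that between 1 and 2 h 3.8% and 14.9%. The share was higher for deepening losses in each alternative fit of the 4 comparisons, although between 1 and 2 h without 2 h library B they were 0.3% and 0.4%, which is 1 region in each set. The difference between the sets was not tested. Deepening losses were also somewhat more open, with a median of 23.5 and 21.7 CPM in the DMSO libraries of experiment 6211 against 22.1 and 19.4 CPM, and they had lower 2 h changes in experiment 6086 (median -0.69 against -0.66 over matched regions). The part of these in the difference was not tested.

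**Figure D4:**
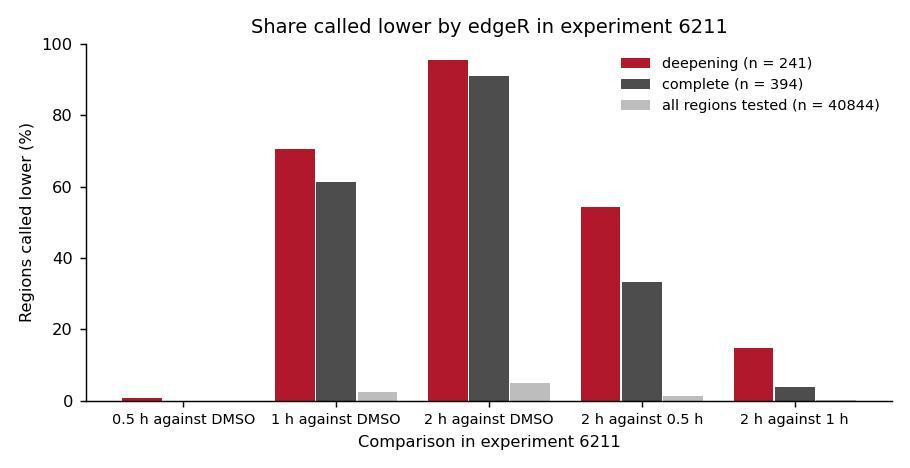
Bars give the percent of regions called lower by edgeR (adjusted p under 0.05) in 5 comparisons of experiment 6211, for matched deepening losses, matched complete losses and all regions tested. The shares are 95.4%, 91.1% and 4.92% at 2 h against DMSO, and 14.9%, 3.8% and 0.316% at 2 h against 1 h.

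The sets were also divided into ranges of the 2 h change in experiment 6086, within which they were not fully alike. From the smallest to the largest losses, the median 2 h changes there were -0.56, -0.65, -0.85 and -1.20 for deepening and -0.54, -0.66, -0.83 and -1.11 for complete losses. For 2 h changes between -0.6 and -0.5 the median change at 2 h in experiment 6211 was -0.62 for 69 deepening and -0.54 for 138 complete losses, and at 1 h -0.44 and -0.37. For those between -0.75 and -0.6 the median change at 2 h in experiment 6211 was -0.76 for 69 deepening and -0.70 for 141 complete losses, and at 1 h -0.43 and -0.46. For those between -1 and -0.75 it was -0.94 and -0.89, with -0.57 for each at 1 h. For those at -1 or lower it was -1.27 for 45 deepening and -1.16 for 23 complete losses, with -0.79 and -0.70 at 1 h. At 0.5 h the medians in the 4 ranges were -0.26, -0.26, -0.32 and -0.42 for deepening and -0.23, -0.26, -0.32 and -0.44 for complete losses. Deepening losses were thus lower at 2 h in all 4 ranges, while at 0.5 h complete losses were the lower ones in 3 of 4, by 0.03 or less. The part of the unlike 2 h changes within ranges was not tested. Of the deepening losses, 66.8% had a lower 2 h change in experiment 6211 than in experiment 6086, against 53.3% of complete losses. The rule used the 2 h libraries of experiment 6086 in the 2 h change and, with the opposite sign, in the further loss, and its part in this was not tested.

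**Figure D5:**
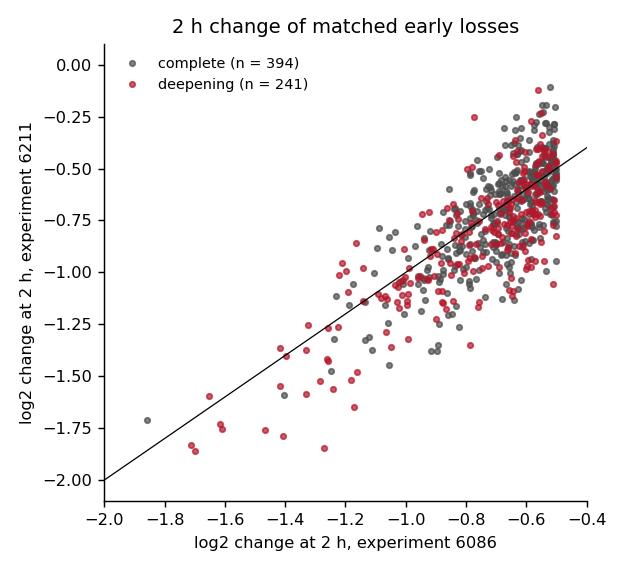
Each point is an early loss matched between the experiments, with its log2 change at 2 h of dTAG47 in experiment 6086 on the x axis and in experiment 6211 on the y axis, and the line marks equal changes. The 241 deepening losses are lower in experiment 6211 in 66.8% of cases and the 394 complete losses in 53.3%, and both sets spread around the line.

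Several features outside the rule were described for the members. Their median width was 403 bp (187 to 1608 bp), against 365 bp for complete losses and 374 bp for all regions with at least 5 CPM. In DMSO they had a median of 15.1 CPM, against 13.1 CPM for complete losses and 12.5 CPM for all such regions. The rule's floor on the mean over 8 libraries bears on this level. Of the 288 members, 160 (55.6%) had another region of any kind within 10 kb, 45 (15.6%) had another early loss within 50 kb, and 14 had another deepening loss that near. The nearest other early loss lay at a median of 579100 bp from members, against 702700 bp from complete losses and 1036000 bp from all regions with at least 5 CPM, and the nearest other deepening loss at 2453000 bp, 2577000 bp and 2949000 bp. Members thus lay nearer to early losses than regions at large did at the median, a difference that was not tested. For complete losses, 12.7% had another early loss within 50 kb. When members at most 50 kb apart were joined, 274 stood alone and 7 stretches held 2 members each, so no stretch held more.

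The pairs did not always move alike. At chr14:34809317-34809801 and chr14:34823720-34824252, the mean levels at 24 h were 1.84 and 5.66 CPM from 15.3 and 21.2 CPM in DMSO, further losses of -1.87 and -0.94. At 0.5 h in experiment 6211 the first of them had a log2 change of -0.10 and the second of -0.48. On chromosome 11, chr11:61273066-61273459 and chr11:61275518-61276260 had log2 changes of -1.86 and -1.06 at 24 h from like DMSO levels of 22.3 and 24.0 CPM. The pair chr17:27295296-27296174 and chr17:27296784-27297378 ended alike, at -1.51 and -1.47, and so did chr1:15790427-15791366 and chr1:15810347-15811265, at -1.16 and -1.11. The other 3 pairs, on chromosomes 6, 19 and 21, also ended alike, at -1.20 and -1.22, -1.08 and -1.06, and -0.91 and -0.93.

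On a wider scale the most members in a window of 1 Mb was 4, on chromosome 17, among 63 regions with at least 5 CPM. On chromosome 12, the 3 members from chr12:66508913-66509375 to chr12:66997879-66998236 made up 3 of 13 such regions in 1 Mb, with no complete loss among the rest. Chromosome 12 held 8.0% of the members (23) and 5.1% of all regions with at least 5 CPM, and chromosome 1 held 13.2% (38 members) and 10.9%. Chromosome 19 held 1.4% of the members (4) and 4.2% of the regions, and chromosome X 0.7% (2 members) and 2.0%. These shares are descriptions and their differences were not tested.

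Regions near the members that were not early losses themselves were also described, and leaving out early losses limits how low their 2 h change can be. Within 10 kb of deepening losses lay 210 regions with at least 5 CPM that were not early losses, and their median log2 change in experiment 6086 was -0.11 at 2 h and -0.18 at 24 h (0.02 at both times for all regions with at least 5 CPM). Of the 149 that could be matched, 16 (10.7%) were called lower and 1 higher at 2 h in experiment 6211, against 4.92% lower of all regions, with a median log2 change of -0.09. Near complete losses, 15 of 261 (5.7%) were lower, the median log2 change was -0.08, and the 24 h median in experiment 6086 was -0.07. The median 24 h change of such neighbours was -0.4 or lower around 37 of the 141 deepening losses that had any (26.2%) and around 45 of 257 complete losses (17.5%). Whether the 2 sets of neighbours differ was not tested.

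Reads in regions numbered 18038062 to 31308682 per library in experiment 6086 and 9934147 to 18275976 in experiment 6211. In simulated counts for the 2 h comparison of experiment 6211, edgeR recovered 60% of changes of 1.5-fold and 98% of changes of 2-fold, with 5 false calls among 40844 regions. The simulation gave every region the same dispersion, so recovery and false calls in the real counts may be unlike these.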

How the data were processed

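Per the submitters' processing notes, the tools were Bowtie2, deepTools, DESeq2, DiffBind, Genrich 0.6.1 and Trimmomatic 0.32, and the builds hg19 and dm3. Which step used which tool, whether reads were shifted for the transposase, and how duplicates were treated are steps not given in the sources used here. Here, the authors deposited raw read counts per consensus region, 1 table for each experiment, and these counts were analysed. The deposited comparison tables of experiment 6211 give the authors' log2 fold changes and adjusted p-values, in columns laid out as DESeq2 writes them. They enter only where named. Coordinates were taken as hg19 from those notes.

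The treatment and time in each column's name gave its group. Column letters (A, B) serve as library names, since nothing links them to the labels' replicate numbers. CPM is the count divided by the column sum and scaled to a fixed total. The main test was edgeR's (version 4.0.16, R 4.3.3; TMM, filterByExpr, quasi-likelihood fit, all 8 libraries of an experiment in 1 fit with 4 residual degrees of freedom, Benjamini-Hochberg over all 56945 or 40844 regions tested). The standard error is the log2 change divided by the square root of F. The test was checked on simulated counts with 200 changed regions. Python 3.11.15, pandas 2.3.3 and NumPy 2.4.6 were used for the rest.

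The members, comparison sets and lists were chosen with earlier results of these data known. Named regions were the 5 members with the lowest further loss, the 5 lowest at 24 h, the 3 most open in DMSO, the widest, the 5 lowest and 3 highest at 2 h in experiment 6211 (for the 5, among those called with mean counts of 30 or more and 2 h libraries all below DMSO), those called at 0.5 h, the 2 smallest and 2 greatest shares at 4 h, the stretches with most members and the regions nearest each limit. Gene lists, promoter classes and motifs were planned and not analysed here. Alternatives were DESeq2 1.42.0, library size only, median-ratio size factors, no filter, only the groups compared, the replicate letter as a block, each library left out, other pseudocounts (0.1 and 2) and minimum levels (2 and 10 CPM), and overlap of at least 1 bp. Leaving out members between 57 and 59 Mb on chromosome 12, where none lay, was added after seeing the data.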

Additional observations from a re-analysis of the deposited data

Results flagged for a closer look

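Effects at different times in experiment 6211 differed by a direct test (edgeR, adjusted p under 0.05) in 131 of the 241 matched members between 0.5 and 2 h and in 36 between 1 and 2 h, all of them lower at the later time. The count of 36 was not stable, since it fell whichever library of the 2 groups was left out, which leaves 1 library in a group.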

How the results depend on the processing

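The count of 288 members became 126 with a minimum mean of 10 CPM and 226 to 301 without single libraries, and of the 288 members 217 remained without DMSO library A. Library size only, median-ratio size factors and overlap of at least 1 bp kept each count of members called within 1.5 times. Of the 288 members 0 lay on chromosome 12 from 57 to 59 Mb, so leaving out that segment could change no count. The filter kept all 40844 regions of experiment 6211, so fits with no filter could change no count there. In experiment 6086 the 4 h count with no filter was 288. DESeq2 called 1, 100, 81 and 16 members lower at 0.5 h, at 1 h, from 0.5 to 2 h and from 1 to 2 h, in place of 2, 170, 131 and 36. At 0.5 h the count was 7 with only the groups compared and 6 with the replicate block. Whether equal letters pair libraries across groups is not in the labels. Correlations between groups of the deviations of library A ranged from -0.137 to 0.211 and do not settle it. The replicate block gave 177, 231, 140 and 39 in the other comparisons of experiment 6211 and 288 at 4 h. Without single libraries the counts ranged from 0 to 20 at 0.5 h, 60 to 178 at 1 h, 206 to 225 at 2 h, 42 to 88 from 0.5 to 2 h, 1 to 16 from 1 to 2 h, and 284 to 288 at 4 h in experiment 6086. A group left with 1 library is assumed to vary like the others. The median log2 changes in experiment 6211 then ranged from -0.36 to -0.24 at 0.5 h, -0.57 to -0.47 at 1 h and -0.87 to -0.75 at 2 h. Of the single regions named, chr17:17440742-17440970 and chr7:131276608-131277045 reversed without 2 h library A, to 0.048 and 0.061 (adjusted p = 0.937 and 0.891), and ranged down to -0.38 and -0.66 without 2 h library B. The cause of these shifts was not tested. In the simulation of the 2 h comparison in experiment 6211, at the depth and number of these libraries, 60% of changes of 1.5-fold were called. Every simulated region had the same dispersion, which the real counts need not have.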
